A study of Sus scrofa with 5 samples.

Results

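The cytosolic ribosomal protein genes encode the protein part of the ribosome. They were taken from the array annotation as the symbols that start with RPL or RPS and a digit, together with RPSA, RPLP0, RPLP1 and RPLP2, leaving out the kinases named RPS6K, the RPS19 binding proteins and the paralogs whose symbol ends in L or L1. Each gene was represented by the probe set (the group of short probes designed for a transcript) with the highest mean signal, which gave 58 genes, 34 of the large and 24 of the small subunit, among 6765 genes in all. The ribosomal protein genes were measured in backfat, the subcutaneous adipose tissue of the pig, on 5 Affymetrix porcine arrays with 1 array per animal. All 5 animals were females of an Iberian × Landrace backcross (BC1_LD) that received the same diet and were classified by the first principal component of carcass and intramuscular fatty acid traits. The H group (BC4, BC5 and BC6) had more polyunsaturated fatty acids in the muscle, and the L group (BC2 and BC3) had more saturated and monounsaturated fatty acids. The groups were therefore extremes of a trait score, with no treatment, and H and L differ in all traits that follow that score.

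A ribosome joins a small subunit, which holds the messenger RNA and reads its codons, to a large subunit, which forms the peptide bonds. Most ribosomal proteins are needed in about the same amount, and the genes are expressed in all cell types. Their messenger RNAs start with a terminal oligopyrimidine (TOP) tract, through which the mTOR kinase and the RNA-binding protein LARP1 adjust their translation to growth factors and nutrients. In adipose tissue several of them serve as reference genes in quantitative PCR.

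The deposited values are log2 signals between a floor of 2.17 and 16.1, and the medians of the 5 arrays lay between 4.21 and 4.29. The tissue label is backfat although the extraction note names liver. The adipocyte fatty acid carrier FABP4 had a signal between 15.36 and 15.49 on the 5 arrays, whereas albumin (ALB), the main protein made by liver, lay between 2.58 and 4.69. Albumin was chosen for this check after its values were seen. Of the lymphocyte markers 7 of 10 were measured and 4 of these (CD3D, CD3E, CD79B and IL7R) were at the floor on all arrays. In whole tissue, fewer cells of a type and less RNA per cell cannot be told apart.

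The ribosomal protein genes were among the brightest genes of the arrays. Of the 58 genes, 54 had a mean signal between 12.41 (RPL13) and 14.74 (RPL17), and these 54 held ranks between 8 and 232 of 6765, all within the brightest 3.43% of genes. They took 2 of the 10 highest ranks, 6 of the highest 20, 27 of the highest 50 and 46 of the highest 100. The median of the 58 means was 14.07, compared with 7.15 for all genes. A rank of this kind is a rank of probe set signal, and since probe sets bind with different strength it does not order the genes by messenger RNA amount.

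At the top of the large subunit stood RPL17, a protein at the exit of the peptide tunnel. Its signal was 14.69 and 14.78 in the L animals and 14.74, 14.78 and 14.72 in the H animals, so that all animals lay within 0.091 on the log2 scale. At the top of the small subunit stood RPS20, with 14.59 and 14.68 in the L animals and 14.64, 14.66 and 14.72 in the H animals. The lowest of the bright genes in the large subunit was RPL13, with 12.27 on BC2 and 12.49 on BC3 in the L group and 12.35, 12.64 and 12.31 on BC4, BC5 and BC6. In the small subunit it was RPS9, with 12.79 on both L arrays and 12.78, 12.99 and 12.92 on the H arrays. The median of the means was 13.81 over the 34 genes of the large subunit and 14.22 over the 24 genes of the small subunit.

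**Figure D1:**
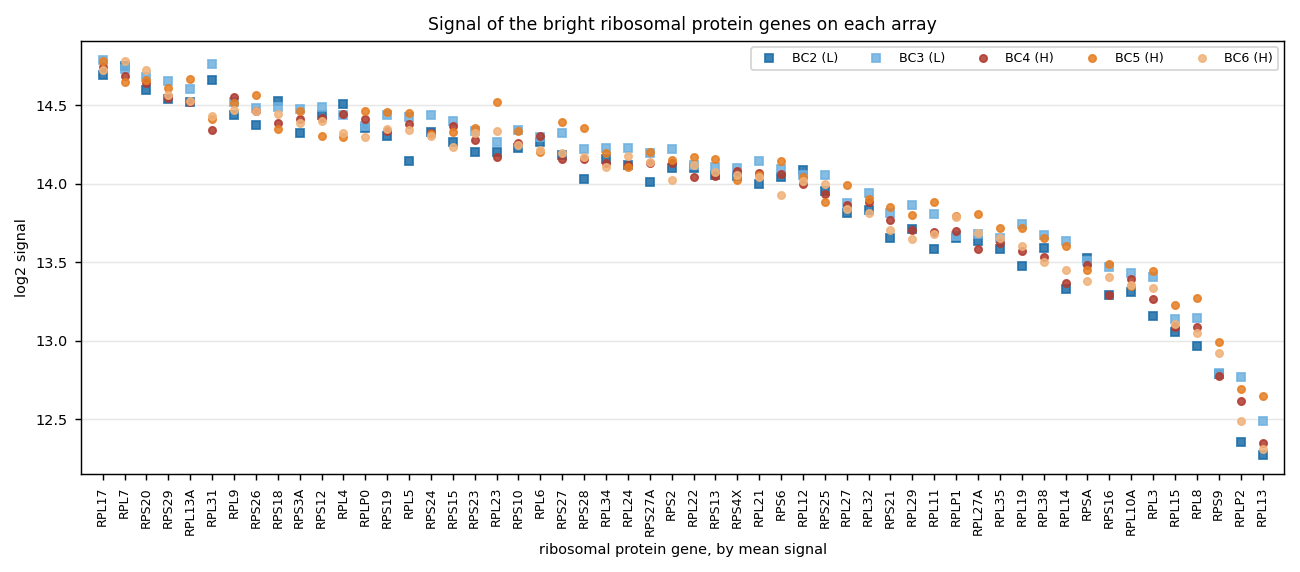
Log2 signal (vertical axis) of the 54 ribosomal protein genes with a mean above 10, ordered by mean (horizontal axis). Each point is 1 array, squares are the L animals BC2 and BC3 and circles the H animals BC4, BC5 and BC6, and the genes run from RPL17 at 14.74 to RPL13 at 12.41 with the 5 animals of a gene close together.

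A further 4 genes did not share this level. RPL37, a small zinc-binding protein of the large subunit, had a mean of 8.17 (rank 2562). RPL26, which lies near the tunnel exit, had a mean of 3.59 (rank 4965), and RPL30 had a mean of 3.32 (rank 5038). RPS15A was at the floor of 2.17 on all 5 arrays. Each of these 4 genes had a single probe set, so that no other signal of the same gene was at hand, and the probe sets of RPL26, RPL30 and RPS15A gave signals at or near the floor, while that of RPL37 lay above the median of all genes.

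The choice of probe set mattered for the level of many genes. The 58 genes had 90 probe sets, and 34 genes had 1, 16 had 2 and 8 had 3. Among the 24 genes with more than 1, the second probe set lay within 1 of the first on the log2 scale in 3 (RPL31, RPS18 and RPL27) and over 4 below it in the other 21, with a median gap of 7.07 and a largest gap of 12.2. A table of RefSeq genes of the pig held 76 symbols that meet the rule, and 18 of them carried no probe set with that symbol alone and were not analysed here. These included RPS3 and RPS14, proteins of the small subunit, RPL10, which is placed late in the assembly of the large subunit, and RPL7A, RPL18, RPL28 and RPS7.

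The signals of the ribosomal protein genes, each at its brightest probe set, varied little from animal to animal. The standard deviation (SD) over the 5 animals had a median of 0.0687 on the log2 scale over the 58 genes, compared with 0.207 over all genes and 0.237 over the other 622 genes of the brightest 10% of genes. Of the 54 bright ribosomal protein genes, 42 (77.8%) had an SD under 0.1, and of the 622 other bright genes 69 (11.1%) did. The median distance between the highest and the lowest animal was 0.169, a ratio of 1.12. As the SD of array signals depends on the level, the same comparison was made within bands of mean signal. Between 14 and 16 the median SD was 0.0609 for 33 ribosomal protein genes and 0.146 for 23 other genes. Between 13 and 14 it was 0.0766 for 18 ribosomal protein genes and 0.214 for 72 other genes, and between 12 and 13 it was 0.153 for 3 and 0.260 for 172. At the dim end, below 4, the order was the other way, with a median SD of 0.301 for 3 ribosomal protein genes (RPL26, RPL30 and RPS15A) and of 0.000118 for 1900 other genes, most of them at or near the floor. These medians are descriptions over genes, which are not replicates. With all probe sets of a gene averaged, the median SD of the ribosomal protein genes was 0.0975. Whether signals this bright follow the messenger RNA amount was not tested.

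**Figure D2:**
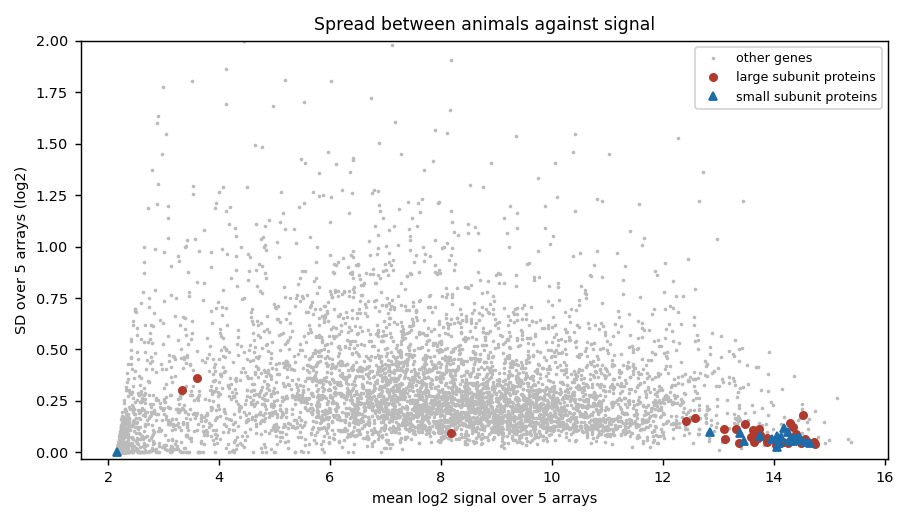
SD over the 5 arrays (vertical axis, log2) against mean log2 signal (horizontal axis), with 1 point per gene, other genes in grey, large subunit proteins as red circles and small subunit proteins as blue triangles. The bright ribosomal protein genes lie at the lower right, with SDs between 0.0276 and 0.181, and 14 other genes lie above the plotted range, which ends at 2.

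The smallest SD of a gene above the floor was 0.0276, for RPS4X, the X-linked protein of the small subunit, with 14.05 and 14.10 in the L animals and 14.08, 14.02 and 14.06 in the H animals. RPL12, a protein at the base of the ribosomal stalk, followed with 0.0342, and RPL17 with 0.0382. The largest SDs belonged to the dim genes RPL26 (0.36) and RPL30 (0.30). RPL26 stood between 3.25 and 4.20, with its highest value on BC3, and RPL30 stood between 2.80 and 3.57, with its lowest value on BC3 and its highest on BC5. Among the bright genes the largest SDs were those of RPL31 (0.181), RPLP2 (0.165) and RPL13 (0.153).

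The stalk of the large subunit, which recruits the elongation factors, is built from RPLP0 and pairs of RPLP1 and RPLP2. RPLP0 had 14.35 and 14.36 in the L animals and 14.41, 14.46 and 14.30 in the H animals. RPLP2 ranged more widely, with 12.36 on BC2 and 12.77 on BC3, while the H animals had 12.62, 12.69 and 12.49. In RPLP2 both L animals lay outside the range of the H animals, 1 on each side.

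Several ribosomal protein genes are also known for a second role. RPL5 and RPL11 bind MDM2 when ribosome assembly fails, and both were lowest on BC2. RPL5 had 14.14 on BC2 and between 14.34 and 14.45 on the other 4 arrays, and RPL11 had 13.59 on BC2 and between 13.68 and 13.88 on the others. RPS6, the substrate of the ribosomal S6 kinases, had 14.04 and 14.09 in the L animals and 14.06, 14.14 and 13.92 in the H animals. RPS19, the protein most often mutated in Diamond-Blackfan anaemia, had 14.30 and 14.44 in L and 14.33, 14.46 and 14.35 in H. RPS27A, which is made as a fusion with ubiquitin, had 14.01 on BC2 and between 14.13 and 14.20 elsewhere. In each of RPS6, RPS19 and RPS27A the H and L animals overlapped.

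The small differences between animals were shared by most of the genes. Each gene was expressed as its deviation from its own mean over the 5 arrays, and the median deviation of the 58 genes was -0.0555 for BC2 and 0.0575 for BC3 in the L group, and -0.0259 for BC4, 0.0578 for BC5 and -0.0205 for BC6 in the H group. BC3 of the L group and BC5 of the H group were thus the high arrays, and BC2 of the L group was the low array. Of the 57 genes that varied, 26 (45.6%) were highest on BC5 and 22 (38.6%) on BC3, and 28 (49.1%) were lowest on BC2. Over all genes that varied the shares were 22.6%, 16.9% and 29.8%, so that BC2 was most often the lowest array there too. Within the L group, 51 of the 58 genes were higher on BC3 than on BC2, with a median difference of 0.106. Within the H group, BC4 and BC6 differed by a median of 0.0029, and 41 genes were higher on BC5 than on BC4. The median deviation of the other 622 bright genes was -0.018 and 0.048 in the L animals and 0.018, -0.081 and -0.011 in BC4, BC5 and BC6, so that on BC5 the ribosomal protein genes and the other bright genes lay on opposite sides of 0.

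A few ribosomal protein genes ran against this order. RPL4, which reaches into the peptide tunnel, RPS18, RPL12 and RPSA, also known as a laminin receptor, were the 4 bright genes with their highest value on BC2. RPL4 had 14.50 and 14.44 in the L animals and 14.44, 14.30 and 14.32 in the H animals, and RPSA had 13.53 and 13.51 in L and 13.48, 13.45 and 13.38 in H. On BC5, where 25 of the 54 bright genes were highest, 8 were lowest, namely RPL7, RPS18, RPS12, RPL4, RPL6, RPL24, RPS25 and RPS4X.

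Measures of the arrays themselves also differed between the animals. The distance between the 3′ and the 5′ control probe sets of GAPDH, which grows as RNA is degraded, was 1.52 and 1.82 in the L animals and 1.90, 2.49 and 1.81 in BC4, BC5 and BC6. The same distance for actin was 4.06 and 4.77 in L and 4.03, 4.80 and 3.85 in H, high on BC3 and BC5, the high arrays of the ribosomal protein genes. A control probe set for the 28S ribosomal RNA of the large subunit had 8.82 and 9.59 in L and 9.51, 10.67 and 10.30 in H, lowest on BC2 and highest on BC5. Another for 28S and that for 5S ribosomal RNA had the same extremes. The controls for the 18S ribosomal RNA of the small subunit did not share this order. The first had 8.92 and 8.52 in L and 9.08, 8.27 and 9.20 in H, lowest on BC5. The other had 7.69 and 8.64 in L and 7.80, 7.95 and 8.45 in H, lowest on BC2 and highest on BC3. BC5 also had the highest summed signal of the skeletal muscle markers (3 of 6 measured), 8.49 on the log2 scale, while BC4 and BC6 had 4.41 and 3.87 and the L animals had 4.08 and 6.02. MYH2, the myosin of fast muscle fibres, was at the floor on BC2 and BC6. The summed endothelial markers (8 of 8 measured) were 14.17 on BC5, between 13.29 and 13.50 on the other H arrays, and 13.06 and 13.61 on the L arrays. Of the 5 measured adipocyte markers of 8, the hormone genes LEP (4.41) and ADIPOQ (9.09) and also LPL (12.84) had their lowest values on BC5. In contrast, FABP4 (15.49) and the lipase LIPE (12.40) had their highest there. The summed adipocyte signal, in which FABP4 was the brightest gene, lay between 15.85 and 15.99 in H and between 15.90 and 16.06 in L. The part of these array measures and markers in the shifts of the ribosomal protein genes was not tested.

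**Figure D3:**
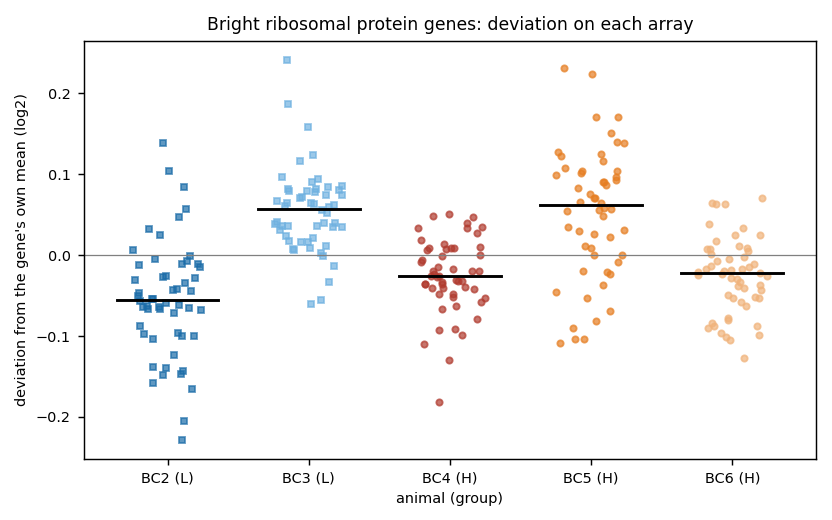
Deviation of each of the 54 bright ribosomal protein genes from its own mean over the 5 arrays (vertical axis, log2), for each animal (horizontal axis, group in brackets). Points are genes and black bars medians, which lie above 0 on BC3 and BC5 and below 0 on BC2, BC4 and BC6.

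The comparison of the H and L groups asked whether the ribosomal protein genes differed between animals with contrasting muscle fatty acid composition. No ribosomal protein gene passed the test (limma, p-value up to 0.01, Benjamini-Hochberg adjusted p up to 0.1 and fold difference of at least 1.2), as no probe set of the 23999 tested did (0%). All 58 genes had an adjusted p of 1, and the lowest adjusted p over all probe sets was 0.133. At an unadjusted p under 0.05 there were 2 ribosomal protein genes (RPL31 and RPS18, 3.45%), against 4.39% of all genes. These counts take only the brightest probe set of each gene. Of the 32 other probe sets, those under 0.05 belonged to RPL7 (difference 0.92), RPL12 (0.28), RPL38 (-0.31), RPL31 (-0.28) and RPS18 (0.024). Those of RPL7, RPL12 and RPL38 had a mean signal under 10. In limma without moderation of the variances 0 ribosomal protein genes passed as well.

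The differences had no common direction. The mean was higher in H in 31 genes and lower in 26, with RPS15A at the floor, and the median difference H minus L was 0.0089 on the log2 scale, less than the median distance of 0.106 between the 2 L animals. Of all genes with a direction 50.2% were higher in H. Without BC2 the count of genes higher in H was 11 and without BC3 it was 44, with medians of -0.056 and 0.054. With the arrays centred on their medians it was 15. It was 18 without BC5. In the large subunit 20 genes were higher and 14 lower in H, and in the small subunit 11 were higher and 12 lower. In 9 of the 24 genes with more than 1 probe set, the probe sets differed in the sign of the difference.

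The differences were also small in size. The median size of the difference was 0.0419 on the log2 scale over the 54 bright ribosomal protein genes, 0.129 over all genes and 0.159 over the other 622 bright genes. In 46 of the 54 genes the difference lay within 0.1 of 0. In 35 of the 54 genes the 95% interval of the difference lay wholly inside 0.263 on either side of 0, the log2 of a 1.2-fold difference, while 40 of the 622 other bright genes (6.43%) had such an interval. In the remaining 19 bright genes, among them RPL5, RPL8, RPL13, RPL14 and RPLP2, a difference of 1.2-fold in at least 1 direction lay within the interval. All these intervals are those of the main limma fit. Their width depends on how the variances are modelled, and the count of 35 was not repeated under other models.

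**Figure D4:**
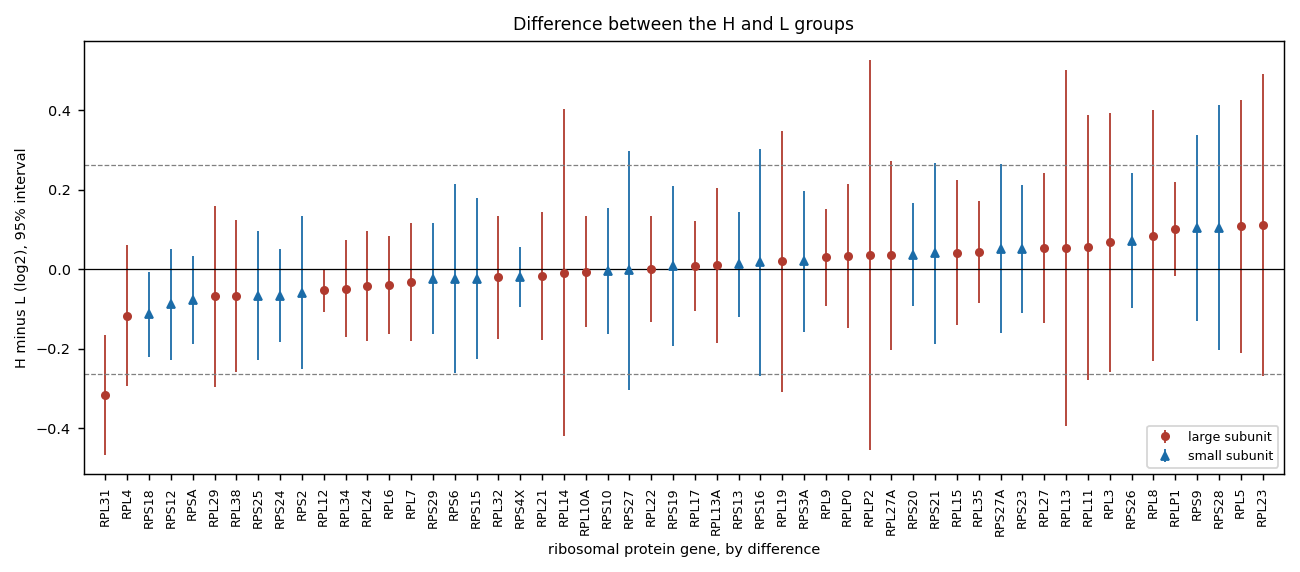
Difference H minus L (vertical axis, log2) of the 54 bright ribosomal protein genes, ordered by difference (horizontal axis), with 95% intervals from limma as bars, large subunit proteins as red circles and small subunit proteins as blue triangles. Dashed lines mark a 1.2-fold difference (0.263), and RPL31 at -0.32 stands apart at the left, while the other genes lie between -0.12 and 0.11.

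RPL31, a protein of the large subunit at the exit of the peptide tunnel, had the largest difference of the bright genes. Its signal was 14.66 on BC2 and 14.76 on BC3 in the L group and 14.34 on BC4, 14.41 on BC5 and 14.43 on BC6 in the H group. All 3 H animals lay below both L animals. The difference was -0.32 ± 0.050 (SE, n = 3 and 2), a ratio of 0.80, with a 95% interval from -0.47 to -0.17, and limma gave a p-value of 0.0057 and an adjusted p of 1. A second probe set for RPL31, whose name carries the suffix of probes that can cross-hybridise, had 14.43 and 14.47 in L and 14.13, 14.21 and 14.16 in H, with a difference of -0.28 ± 0.029. Both probe sets were designed for the same transcript cluster and are not independent measurements. Leaving out each animal in turn gave differences between -0.37 and -0.27 for the first probe set. The SE, interval and p-value of that probe set depend on how the variances are modelled. Its limma p-value was 0.034 without the dimmest 40% of probe sets and 0.067 with a variance trend on signal intensity. It was 0.0041 with median centring, 0.0056 with array weights and 0.0093 without moderation of the variances.

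RPS18, a protein of the small subunit head and a common reference gene, had 14.52 and 14.49 in L and 14.39, 14.35 and 14.44 in H. The H animals lay below the L animals, with a difference of -0.11 ± 0.036 (limma p-value 0.042, adjusted p 1). The 2 other probe sets of RPS18 did not share this order. One had 14.02 and 14.21 in L and 14.16, 14.23 and 14.11 in H, and the other stayed between 13.47 and 13.50 on all 5 arrays, with the H animals above the L animals.

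Besides RPL31 and RPS18, the H animals lay below the L animals in RPS12, RPS24, RPL12 and RPSA, and above them in RPLP1. These 7 genes are 12.7% of the 55 ribosomal protein genes with 5 distinct values, against 20.7% of the 4855 such genes in all. The 6 lower in H are 10.9% against 11.2%, and the 1 higher in H is 1.82% against 9.50%. RPS24, a target of mutations in Diamond-Blackfan anaemia, had 14.33 and 14.44 in L and 14.32, 14.32 and 14.30 in H, so that BC2 and BC4 differed by less than 0.01. The difference of RPS24 was -0.066 ± 0.039, and it was -0.011 without BC3 and -0.12 without BC2. RPS12 had 14.43 and 14.49 in L and 14.42, 14.31 and 14.40 in H. RPL12 had 14.09 and 14.06 in L and at most 14.04 in H, with a difference of -0.053 ± 0.018 (limma adjusted p 1) that became 0.074 when all probe sets of the gene were averaged.

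On the other side, RPLP1, the acidic stalk protein, had 13.65 and 13.66 in L and 13.70, 13.79 and 13.79 in H. Its difference was 0.10 ± 0.039, with a limma p-value of 0.073 and an adjusted p of 1. Its partners in the stalk differed by 0.034 ± 0.060 (RPLP0) and 0.035 ± 0.16 (RPLP2), with overlapping groups. Of the genes with a higher mean in H, the next in order of p-value were the dim RPL30, at 0.36 ± 0.23 (limma p-value 0.20), RPS9, at 0.10 ± 0.078 (0.27), RPS26, at 0.072 ± 0.057 (0.28), and RPS28, at 0.11 ± 0.10 (0.38), and in all of them the groups overlapped. Without BC2 the difference was 0.018 for RPS26 and 0.010 for RPS28, without BC3 it was 0.13 and 0.20, and without BC5 it was 0.038 for RPS26, 0.041 for RPS28 and 0.055 for RPS9. Without BC4 that of RPS9 was 0.16. Among the bright genes RPL23 and RPL5 had the largest differences with a higher mean in H, 0.11 ± 0.13 and 0.11 ± 0.11. In RPL23 the value of 14.52 on BC5 stood above the 4 others, which lay between 14.17 and 14.34.

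Translation factors and other genes of the TOP class, whose translation is regulated together with that of the ribosomal proteins, also varied little. Of 23 listed, 18 were measured, with a median SD of 0.0950. FAU, whose product is cleaved to a ribosomal protein of the small subunit, had 13.46 and 13.59 in L and 13.60, 13.76 and 13.51 in H. TPT1, a well-known TOP messenger RNA, had between 14.90 and 15.06. The nucleolar chaperone NPM1 varied most, with 12.85 on BC2, 13.80 on BC3 and 13.08, 13.44 and 13.17 in H (SD 0.36), and EEF1A1 (SD 0.30) and EIF4B (0.24) also lay above the median SD of all genes. As for the ribosomal proteins, BC2 was the low array of the list and BC3 and BC5 were its high arrays, with median deviations of -0.0877 (BC2) and 0.0768 (BC3) in L and -0.0156, 0.0582 and -0.0641 in BC4, BC5 and BC6. Its lowest array was BC2 in 11 of the 18 genes. Between the groups, 10 were higher and 8 lower in H, with a median difference of 0.013, and 0 passed.

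Of 38 genes that build ribosomes, 30 were measured, most of them at a lower signal than the ribosomal protein genes. Their median SD was 0.248, beside medians of 0.290 and 0.243 for the other genes with means between 6 and 8 and between 8 and 10. By the median deviation BC2 was also their low array (-0.112), whereas BC6 was their high array (0.107). In H 16 were higher and 13 lower, with a median difference of 0.023, and 0 passed. NHP2, a protein of the particles that modify ribosomal RNA, had 8.50 and 8.51 in L and 7.72, 8.27 and 8.15 in H. NMD3, which exports the large subunit from the nucleus, had 9.29 and 9.03 in L and 8.93, 8.22 and 8.94 in H. In NHP2 and NMD3 all H animals lay below the L animals, with limma p-values of 0.10 and 0.22. The groups overlapped in the other measured genes of the list, while 20.7% of all genes with 5 distinct values had non-overlapping groups.

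Of 22 genes of the mTOR pathway and of TOP control 11 were measured, 7 higher and 4 lower in H with a median difference of 0.13, and 0 passed. RHEB, the activator of mTOR, had 9.53 and 9.68 in L and 10.12, 9.73 and 9.78 in H. EIF4E, the cap-binding factor, had 5.90 and 5.40 in L and between 5.94 and 6.25 in H. In both the groups did not overlap, and limma gave p-values of 0.18 and 0.13. No other measured gene of the list had non-overlapping groups, while 20.7% of all genes with 5 distinct values did. AKT1 had the largest difference of the list, 0.52 ± 0.31, with overlapping groups (limma p-value 0.18). TSC2, an inhibitor of the pathway upstream of RHEB, had 4.17 and 4.70 in L and 4.46, 4.25 and 4.14 in H.

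Of 10 ribosomal protein paralogs 5 were measured. RPL22L1 (mean 13.37) and RPL36AL (13.38) had signals in the range of the ribosomal protein genes, and RPL26L1 had 9.93. RPL7L1 was higher in every H animal (10.31, 10.38 and 10.49) than in the L animals (10.27 and 10.31), with a limma p-value of 0.20. Of 13 genes of ribosomal stress and quality control 4 were measured. USP10, a deubiquitinase that rescues proteins of the small subunit, had 11.32 and 11.18 in L and 11.04, 11.00 and 10.93 in H, a difference of -0.25 with a limma p-value of 0.023 and an adjusted p of 1. Non-overlapping groups, as in RPL7L1 and USP10, occurred in 20.7% of all genes with 5 distinct values.

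**Figure D5:**
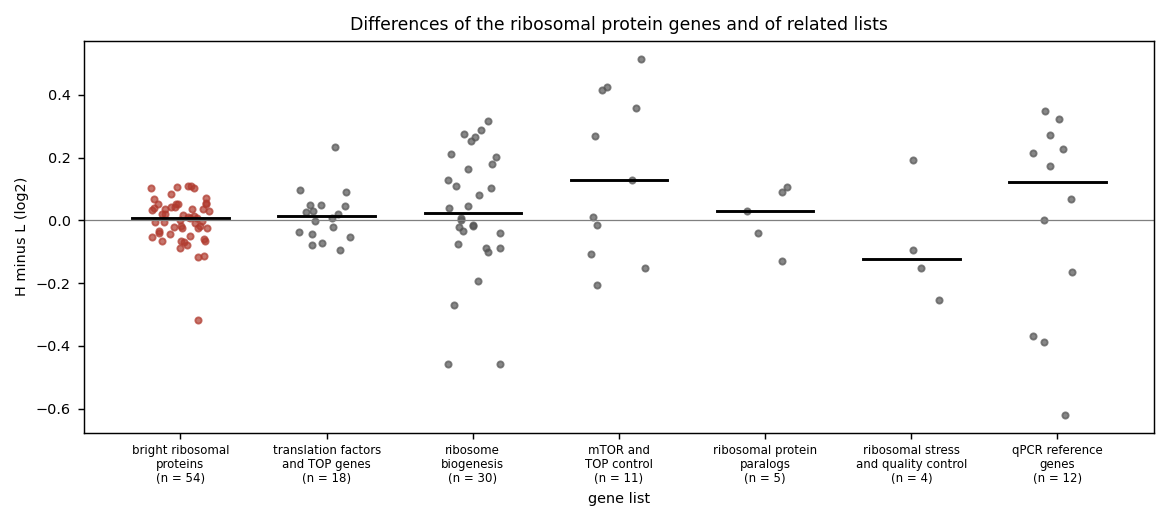
Difference H minus L (vertical axis, log2) of the 54 bright ribosomal protein genes in red and of the measured genes of 6 related lists in grey (horizontal axis, number of genes in brackets), with medians as black bars. The ribosomal protein genes other than RPL31 lie within 0.12 of 0, and genes of the biogenesis, mTOR and reference lists reach beyond 0.3 in size.

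The reference genes of quantitative PCR that do not code for ribosomal proteins had a median SD of 0.222 over the 12 measured of 16. These 12 include TFRC, which was at the floor on all arrays and so had an SD of 0. YWHAZ had an SD of 0.61, PGK1 of 0.57, ACTB of 0.32 and GAPDH of 0.23, at mean signals between 8.75 (YWHAZ) and 12.98 (GAPDH), and B2M (0.16), HPRT1 (0.16) and PPIA (0.14) were steadier. GAPDH had 13.16 and 13.25 in L and 12.93, 12.68 and 12.90 in H, with non-overlapping groups (limma p-value 0.032, adjusted p 1). In B2M (difference 0.21) and TBK1 (0.27) the groups did not overlap either, with all H animals above the L animals (limma p-values 0.14 and 0.17). Among all genes with 5 distinct values, 20.7% had non-overlapping groups. The ribosomal protein genes in use as references had smaller SDs, 0.0527 for RPL32, 0.0632 for RPLP0, 0.0656 for RPL13A, 0.0717 for RPS18 and 0.0872 for RPL4. RPL32 had 13.83 and 13.94 in L and 13.88, 13.90 and 13.81 in H. RPL13A had 14.52 and 14.60 in L and 14.52, 14.66 and 14.53 in H. In RPL32, RPLP0 and RPL13A the groups overlapped. These SDs are those of array signals after normalization between the arrays, and how steady the same genes would be against input RNA was not measured.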

How the data were processed

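Backfat RNA of 5 pigs (3 H, 2 L) was hybridised to Affymetrix porcine arrays. The deposited log2 values had been corrected for background, normalized between arrays and summarized per probe set by the authors. The methods name GCRMA and the submitters' notes RMA. Group membership follows the study's classification of the animals, since the array labels give animal names only. The number of arrays limits the precision. Of 24123 probe sets, 124 were controls, and the remaining 23999 entered limma 3.58.1 (lmFit and eBayes, R 4.3.3) for the contrast of H with L, without covariates or a filter on dim signals. Of these, 10069 carried 1 symbol and gave 6765 genes, each by its brightest probe set. A further 8 probe sets that carried a ribosomal protein symbol beside another symbol were left out. Probe sets passed at p 0.01, adjusted p 0.1 and fold 1.2. The study set these thresholds for its RNA-Seq counts, with a q-value, and did not apply them to the arrays. Related lists and cell markers were counted by direction. The members and lists were chosen with earlier results of these data known. Named genes were those brightest, dimmest, most and least variable, with the smallest p-values in each direction, or well known. The text prints part of them. Alternatives were filters, scalings, variance models, probe set choices and leaving out each animal. Steps were tested on simulated data. Plots were drawn with matplotlib.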

Additional observations from a re-analysis of the deposited data

How the results depend on the processing

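In all 14 alternatives to the test, including an adjusted p up to 0.05 with no fold limit, the number of ribosomal protein genes that passed stayed 0. Over all probe sets, 160 passed without BC2 and 286 without BC3, fits in which the lone L animal is assumed to vary like the H animals. The median difference H minus L was -0.033 with median centring of the arrays, -0.0069 with array weights and 0.031 with the mean over all probe sets of a gene, and leaving out each animal gave between -0.0555 and 0.0543. The number of genes higher in H was 15 with median centring and ran from 11 to 44 when each animal was left out. The median level was 12.98 and the median SD 0.0975 when all probe sets of a gene were averaged. Leaving out each animal, an alternative chosen after seeing the data for the SD, gave median SDs between 0.0610 and 0.0747, and median levels between 14.07 and 14.09. The cause of these changes was not tested. The median shift on each array kept its sign under the 5 alternatives run. Of 11 named differences, those of RPL31, RPS18, RPSA, RPS12, RPS24, RPL4, RPLP1, RPS9, RPS26 and RPS28 kept their sign in all 12 alternatives, though leaving out each animal moved that of RPS28 between 0.010 and 0.20, of RPS26 between 0.018 and 0.126, of RPS24 between -0.121 and -0.011, of RPS9 between 0.055 and 0.164 and of RPS12 between -0.116 and -0.054, and that of RPL12 became 0.074 when all its probe sets were averaged. With all probe sets of the gene averaged, the difference of RPS18 was -0.014. No paired analysis was possible because the H and L animals share no replicate number. With 3 and 2 arrays, a gene not passing the test is not shown to be equal in the groups.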
